A study of Mus musculus with 24 samples.

Results

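The mitochondrial genome encodes 13 proteins of the respiratory chain, and 10 of their genes are described here: mt-Nd1, mt-Nd2, mt-Nd4, mt-Nd5, mt-Nd6, mt-Cytb, mt-Co1, mt-Co2, mt-Co3 and mt-Atp6. They were chosen by name from the 55359 rows of a table of gene counts, and all 10 had a row. Only 7 of them held enough counts to be tested. mt-Co2 and mt-Co3 were at 0 in all 24 wells, and mt-Atp6 had 1 count in all.

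The wells held oligodendrocytes, the myelin-forming cells of the brain, sorted with magnetic O4 antibody from cortices of pups of the strain C57Bl6J, taken between postnatal days 5 and 7. Every culture spent 3 days in differentiation, driven chiefly by the thyroid hormone triiodothyronine (T3), and then 3 days at a set ethanol concentration. Experiment 1, which the labels give as batch 1, had 6 wells at 30 mM ethanol and 6 control wells at 0 mM. Experiment 2, given as batch 2, had 6 wells at 10 mM and 6 control wells at 0 mM. Control plates stood in an incubator of their own, so the effects of ethanol and of the incubator cannot be told apart, and neither can those of dose and experiment. The labels call the wells biological replicates but tie none to a pup or a preparation, so p-values measure the spread between wells.

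A mitochondrion transcribes both strands of its circular DNA as long precursors, and the tRNAs that lie between most genes are cut out to free the messenger and ribosomal RNAs. Most of the messenger RNAs are polyadenylated. All are translated inside the organelle, where their products join subunits that are encoded in the nucleus and imported. mt-Nd1, mt-Nd2, mt-Nd4, mt-Nd5 and mt-Nd6 encode membrane subunits of complex I, which takes electrons from NADH. mt-Cytb encodes cytochrome b, the core of complex III, mt-Co1 to mt-Co3 the catalytic core of cytochrome c oxidase (complex IV), and mt-Atp6 a subunit of the proton channel of ATP synthase (complex V). Oligodendrocytes use much energy and lipid while they build myelin.

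Pieces of mitochondrial DNA also lie in the mouse nuclear genome, and a read that fits both places has no single origin. To see where that bears on these genes, each window of 100 bases, the read length, was searched for in the nuclear transcripts of GENCODE M21, which uses the build GRCm38. The submitters' processing notes name GRCm39 for the counts, so no coordinates are given. The last 100 bases of 5 genes are shown because the reads came from near the 3′ end. Capitals mark bases that differ from the annotated nuclear copy or lie past its end, and lower case marks bases that it shares. The copies are Gm28661 for mt-Co2, Gm10925 for mt-Atp6, Gm28437 for mt-Co3, Gm29216 for mt-Co1 and Gm13339 for mt-Nd2.
mt-Co2: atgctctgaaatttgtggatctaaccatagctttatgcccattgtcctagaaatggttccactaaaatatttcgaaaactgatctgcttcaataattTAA
mt-Atp6: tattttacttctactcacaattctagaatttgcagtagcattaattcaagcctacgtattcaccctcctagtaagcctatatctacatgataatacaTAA
mt-Co3: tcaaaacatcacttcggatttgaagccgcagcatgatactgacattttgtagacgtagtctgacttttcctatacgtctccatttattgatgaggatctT
mt-Co1: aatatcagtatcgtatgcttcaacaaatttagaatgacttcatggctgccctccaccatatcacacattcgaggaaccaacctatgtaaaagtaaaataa
mt-Nd2: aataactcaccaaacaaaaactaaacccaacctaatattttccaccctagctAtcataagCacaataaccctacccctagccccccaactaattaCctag

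Of the 10 genes, the 3 that were not counted were those with a near complete and identical nuclear copy. The copy of mt-Co2 matched it over 681 aligned bases with 0 mismatches, that of mt-Atp6 over 678 with 0 and that of mt-Co3 over 783 with 0, and the capitals above show that each lacks only the stop codon or its first base. All 3 copies lie on the minus strand of chromosome 1 in GRCm38, in the order in which their counterparts follow each other in the mitochondrion. The share of 100-base windows found in a nuclear transcript was 99.5% for mt-Co2, 99.5% for mt-Atp6 and 99.9% for mt-Co3. Of the counted genes, mt-Nd4 had 60.8% of its windows in a nuclear transcript and 0% of those in its last 500 bases, and its copy Gm28439 had 0 mismatches over 876 bases. For mt-Nd2 the shares were 3.19% and 7.48%, and the copy differed at 17 of 510 bases. mt-Nd1, mt-Nd5, mt-Nd6 and mt-Cytb had 0% by either measure. Nuclear DNA outside annotated transcripts was not searched, so 0% does not show that a gene has no nuclear copy.

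mt-Co1 was the counted gene whose 3′ end was most shared. Of the windows in its last 500 bases 94.8% were found in a nuclear transcript, against 30.8% of all its windows, and the copy Gm29216 had 1 mismatch over 483 bases. Genes outside the 10 did not all follow the same line. mt-Nd4l, with 98.5% of windows shared, was at 0 in all wells. So was mt-Atp8, with 0% of windows in annotated nuclear transcripts, the only nuclear sequence searched. A copy of mt-Atp8 elsewhere in the nuclear genome would not have been seen. mt-Nd3, with 97.6% shared, still held 0.0132% of counts on average over the 24 wells. The 10 annotated nuclear copies that were looked up held 193 counts in all 24 wells together, and no single copy had more than 7 in a well. A count of 0 allows a share of up to 0.000165% in the deepest well and 0.000253% in the shallowest, by a limit of 3 counts that covers counting error only. How the authors treated reads with several matches is not given in the sources used here, and the part of shared sequence in the missing and the lower counts was not tested. The level of mt-Co1 is uncertain for the same reason.

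**Figure D1:**
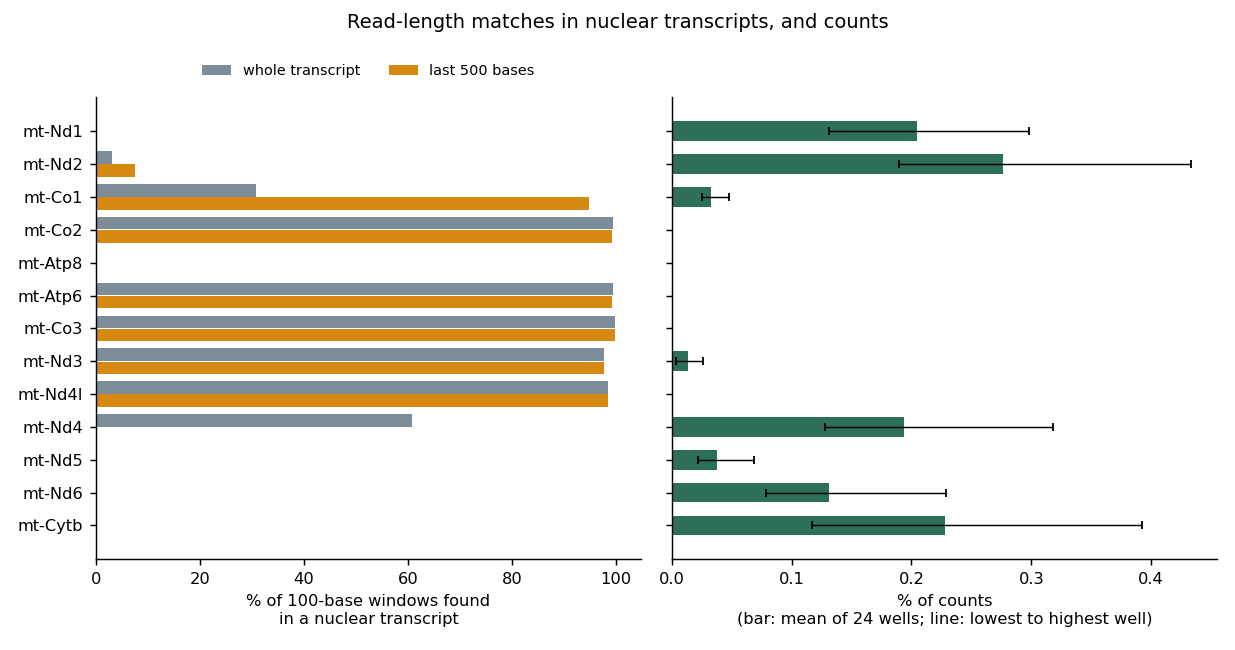
Left, the share of 100-base windows of each mitochondrial protein gene, in mitochondrial order, that is found exactly in a nuclear transcript, over the whole gene (grey) and its last 500 bases (orange). Right, the mean share of counts over 24 wells with the lowest and the highest well: mt-Co2, mt-Atp6 and mt-Co3 have nearly all windows shared and no bar, and mt-Atp8 has no shared window and no bar.

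A second pair of genes shares sequence inside the mitochondrion. mt-Nd6 is the one gene of the 10 read from the opposite strand, and its end runs into that of mt-Nd5. The last 60 bases of each are shown, with the 14 bases that both ends cover in capitals, each written 5′ to 3′ in its own sense.
mt-Nd5: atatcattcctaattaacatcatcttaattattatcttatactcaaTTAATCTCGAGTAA
mt-Nd6: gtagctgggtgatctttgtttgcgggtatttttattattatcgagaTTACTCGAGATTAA

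Whether the counting used strand is not stated, so counts from the facing ends of mt-Nd5 and mt-Nd6 may not be told apart. If strand was not used, RNA of the opposite strand would be counted with a gene over its whole length, not only where the ends overlap. The values given for mt-Nd6 may then hold RNA of the other strand.

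The levels of the 7 counted genes differed widely per length of gene. Over 24 wells mt-Nd2 held a mean of 0.266% of counts per kilobase, mt-Nd6 0.253%, mt-Nd1 0.214%, mt-Cytb 0.199% and mt-Nd4 0.141%. mt-Co1 with 0.0210% and mt-Nd5 with 0.0209% per kilobase were the lowest. Reads of 3′ tags come from the end of a transcript, so that this scale makes a long gene look low. In counts, the lowest value of any of the 7 was 257 for mt-Nd5 in a well at 10 mM and the highest 6086 for mt-Nd2 in a well at 30 mM. The total count per well ran from 1184609 to 1817028.

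At 30 mM ethanol, 6 of the 7 tested genes were higher than in the controls of the same experiment, by 0.28 to 0.38 on the log2 scale, and mt-Nd1 did not pass the test. The test was edgeR's quasi-likelihood test over 13235 genes with Benjamini-Hochberg adjustment, and a gene was called at an adjusted p under 0.05. Of all genes tested 9.67% were called, and 3.02% were called higher. The tested genes had a median log2 fold change of 0.34, against 0.02 for all genes tested. None reached a change of 0.5 on the log2 scale. In bulk RNA a change in the number of cells of a kind and a change in the RNA of each cell cannot be told apart.

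Among the complex I genes, mt-Nd4 separated the groups. Its share of counts was 0.180% at the lowest, 0.219% at the median and 0.233% at the highest in the control wells, and 0.238%, 0.270% and 0.318% at 30 mM. All 6 ethanol wells lay above the highest control, and the log2 fold change was 0.37 (SE 0.0672, adjusted p = 0.000159 by edgeR). Of all genes tested, 1.21% had every ethanol well above every control well. mt-Nd2 went from 0.271%, 0.306% and 0.323% in the controls to 0.283%, 0.384% and 0.434% at 30 mM. Here 5 of 6 ethanol wells lay above the highest control and replicate 1, the lowest, fell among the controls (log2 fold change 0.34, SE 0.0683, edgeR adjusted p = 0.000649).

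mt-Nd5, which encodes the large subunit at the far end of the proton-pumping arm, held 0.0385%, 0.0436% and 0.0507% of counts in the controls and 0.05003%, 0.0583% and 0.0685% at 30 mM. The groups overlapped by 1 well, and the log2 fold change was 0.38 (SE 0.0751, edgeR adjusted p = 0.000508). The values of mt-Nd6 may hold RNA of the other strand, since the use of strand in counting is not stated. mt-Nd6 held 0.128%, 0.147% and 0.162% in the controls and 0.132%, 0.187% and 0.229% at 30 mM. It was higher by 0.35 (SE 0.0773, edgeR adjusted p = 0.00201), with 5 of 6 ethanol wells above the highest control. mt-Nd1, the subunit beside the site where quinone binds, had the smallest change of the 7. It held 0.220%, 0.245% and 0.264% in the controls and 0.232%, 0.276% and 0.298% at 30 mM, and its log2 fold change was 0.17 (SE 0.0609, edgeR adjusted p = 0.0611) with 5 of 6 ethanol wells above the highest control.

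In complexes III and IV both counted genes had groups that did not overlap. mt-Cytb held 0.231%, 0.284% and 0.311% of counts in the controls and 0.316%, 0.345% and 0.392% at 30 mM (log2 fold change 0.33, SE 0.0661, edgeR adjusted p = 0.000537). mt-Co1, the catalytic subunit of cytochrome c oxidase, held 0.0302%, 0.0342% and 0.0367% in the controls. At 30 mM it held 0.0388%, 0.0397% and 0.0473%, and the log2 fold change was 0.28 (SE 0.0648, edgeR adjusted p = 0.00325). For mt-Co2, mt-Co3 and mt-Atp6 no comparison could be made.

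**Figure D2:**
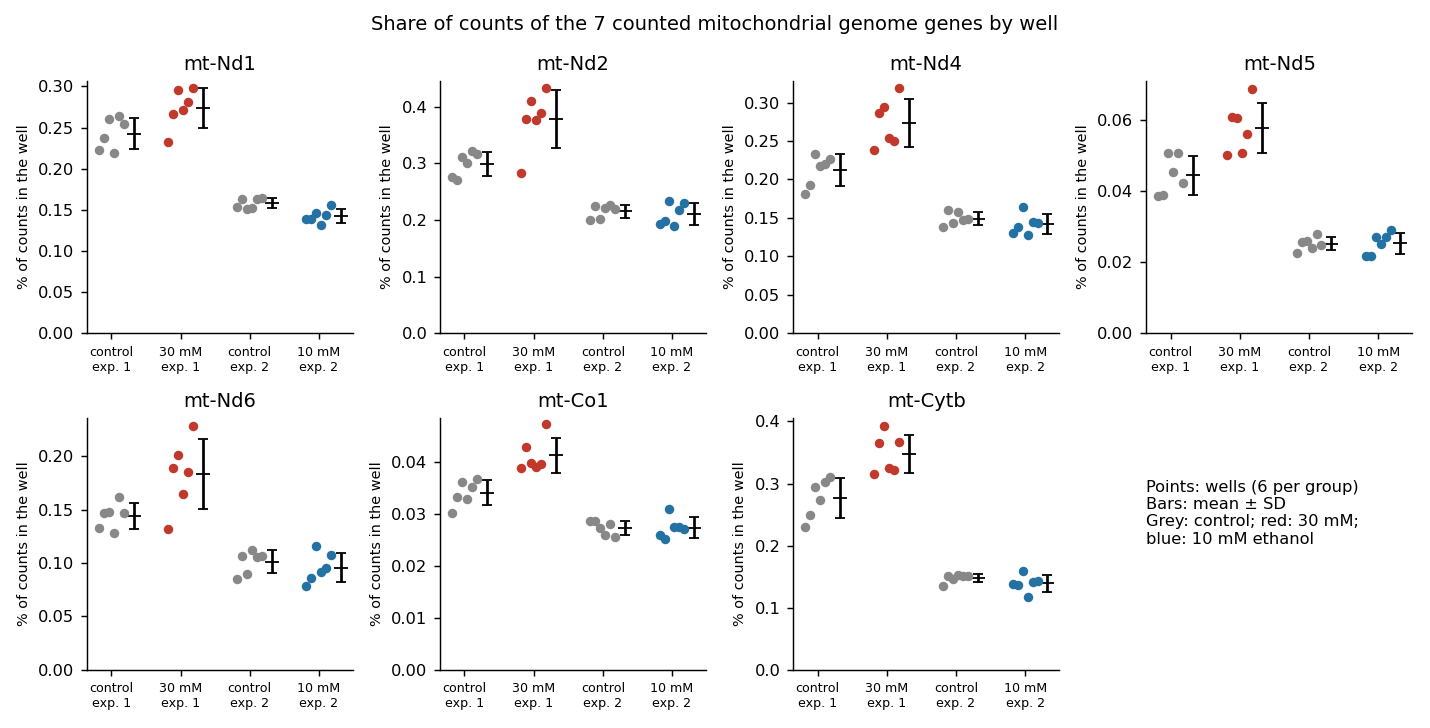
Share of each well's total count, in percent, held by each of the 7 counted genes in the 4 groups of 6 wells, with the mean and SD of each group beside its points. All 6 red wells lie above all 6 control wells of experiment 1 for mt-Nd4, mt-Co1 and mt-Cytb, and the control wells of experiment 2 lie below those of experiment 1 in every panel.

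Replicate 1 at 30 mM stood apart from the other wells of its group. It was the lowest of the 6 for mt-Nd1, mt-Nd2, mt-Nd4, mt-Nd5, mt-Nd6, mt-Co1 and mt-Cytb, had the highest total count of the group (1688867) and the highest summed share of oligodendrocyte markers (1.46%). Without it all 7 tested genes were called higher, with log2 fold changes of 0.40 for mt-Nd2 (edgeR adjusted p = 2.81e-07), 0.42 for mt-Nd6 (edgeR adjusted p = 1.29e-06) and 0.21 for mt-Nd1 (edgeR adjusted p = 0.00739). The call on mt-Nd1 also changed without control replicate 5 of experiment 1 (log2 fold change 0.20, edgeR adjusted p = 0.0482). By DESeq2 and by limma voom mt-Nd1 passed as well.

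Other kinds of cells were measured beside these changes. At 30 mM, 6 of 12 oligodendrocyte markers were called higher and 1 lower, against 3.02% and 6.65% of all genes, and their summed share of counts was 0.720 to 0.837% in the controls and 0.850 to 1.46% with ethanol. Of 8 astrocyte markers 5 were called higher, with summed shares of 0.403 to 0.472% and 0.528 to 0.638%. Of 9 tested fibroblast and mural cell markers 6 were called lower, with summed shares of 0.0757 to 0.105% and 0.0368 to 0.0449%. None of these 3 pairs of ranges overlapped. Of all single genes tested, 1.21% had every ethanol well above every control well. No such share is given here for the lower direction or for sums of genes. Microglia markers were at 0.0167 to 0.0290% and 0.0173 to 0.0281%, and 1 of 6 tested was called higher. No marker of these lists was at 0 in every well, and the part of the makeup of the wells in the mitochondrial result was not tested. With the log2 total count of each well as a covariate, 6 of the 7 genes were called at 30 mM.

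Together the 7 genes took 1.25% ± 0.102 (SD, n = 6) of counts in the controls and 1.56% ± 0.167 (SD, n = 6) at 30 mM. mt-Nd2 made up 23.9% ± 0.671 (SD, n = 6) of that pool in the controls and 24.3% ± 1.34 (SD, n = 6) with ethanol, and mt-Cytb 22.0% ± 0.894 (SD, n = 6) and 22.4% ± 1.39 (SD, n = 6). The part of mt-Nd1 moved most among these 3, and it went from 19.4% ± 0.792 (SD, n = 6) to 17.7% ± 0.713 (SD, n = 6), and the wells of the 2 groups overlapped. After the group means were taken out, the log2 levels of the 7 genes went up and down together from well to well: over 21 pairs of genes and 24 wells Pearson's r ran from 0.511 to 0.892 with a median of 0.722. These values are a description, since all genes of a well share its library and its depth.

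**Figure D3:**
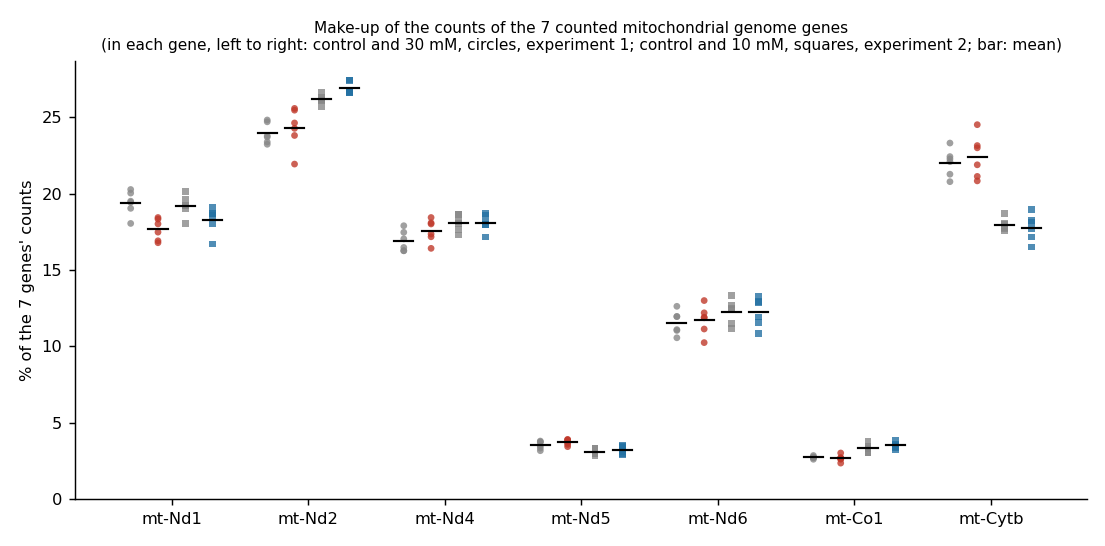
Share of the summed counts of the 7 counted genes, in percent, that each gene made up in every well, with bars at the group means (circles, experiment 1; squares, experiment 2). The control wells of the experiments do not overlap for mt-Nd2, mt-Co1 and mt-Cytb, and the mean part of mt-Nd1 is lower at 30 mM than in its controls.

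Of the other RNAs of the mitochondrial genome with enough counts, 4 of 7 were called higher at 30 mM, against 3.02% of all genes tested. mt-Rnr1 and mt-Rnr2, the ribosomal RNAs of the organelle, were higher by 0.37 (SE 0.0733, edgeR adjusted p = 0.000521) and 0.26 (SE 0.0714, edgeR adjusted p = 0.0156). They lie first in the precursor of the coding-rich strand, and their summed counts were 1.55 ± 0.126 (SD, n = 6) times those of the 7 protein genes in the controls and 1.55 ± 0.126 (SD, n = 6) times at 30 mM. mt-Nd3, a further complex I subunit, was higher by 0.38 (SE 0.0759, edgeR adjusted p = 0.000508). Of the tRNA genes with enough counts, mt-Te was higher by 0.39 (SE 0.0834, edgeR adjusted p = 0.00104), while mt-Tq, mt-Tp and mt-Tv did not pass, at 0.09, 0.08 and 0.31. Whether these counts came from the tRNAs or from longer RNA over their genes was not tested. mt-Te and mt-Nd6 lie on the same strand, and so do mt-Tq and mt-Tp.

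Few of the partner subunits encoded in the nucleus were called at 30 mM. Of 77 such genes of complexes I to V that had a row, 76 were tested, 0 were called higher and 5 lower by edgeR, where 3.02% of all genes were called higher and 6.65% lower. Their median log2 fold change was -0.10, against 0.02 for all genes tested. DESeq2 and voom also called 5, and 23 had an unadjusted p under 0.05. By complex, 2 of 36 genes of complex I, 0 of 4 of complex II, 0 of 10 of complex III, 1 of 12 of complex IV and 2 of 14 of complex V were lower. Ndufs4, an accessory subunit of complex I, was lower by -0.26 (SE 0.0695, edgeR adjusted p = 0.0127). Cox7b of complex IV was at -0.21 (SE 0.0589, edgeR adjusted p = 0.0176) and Atp5g1, which encodes the c subunit of the ring of ATP synthase, at -0.23 (SE 0.0631, edgeR adjusted p = 0.0125). The summed counts of the 7 mitochondrial genes were 0.415 ± 0.0383 (SD, n = 6) times those of the nuclear genes in the controls and 0.547 ± 0.0695 (SD, n = 6) times at 30 mM. Replicate 1 at 30 mM, with a ratio of 0.443, lay within the range of the controls, whose highest ratio was 0.464.

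**Figure D4:**
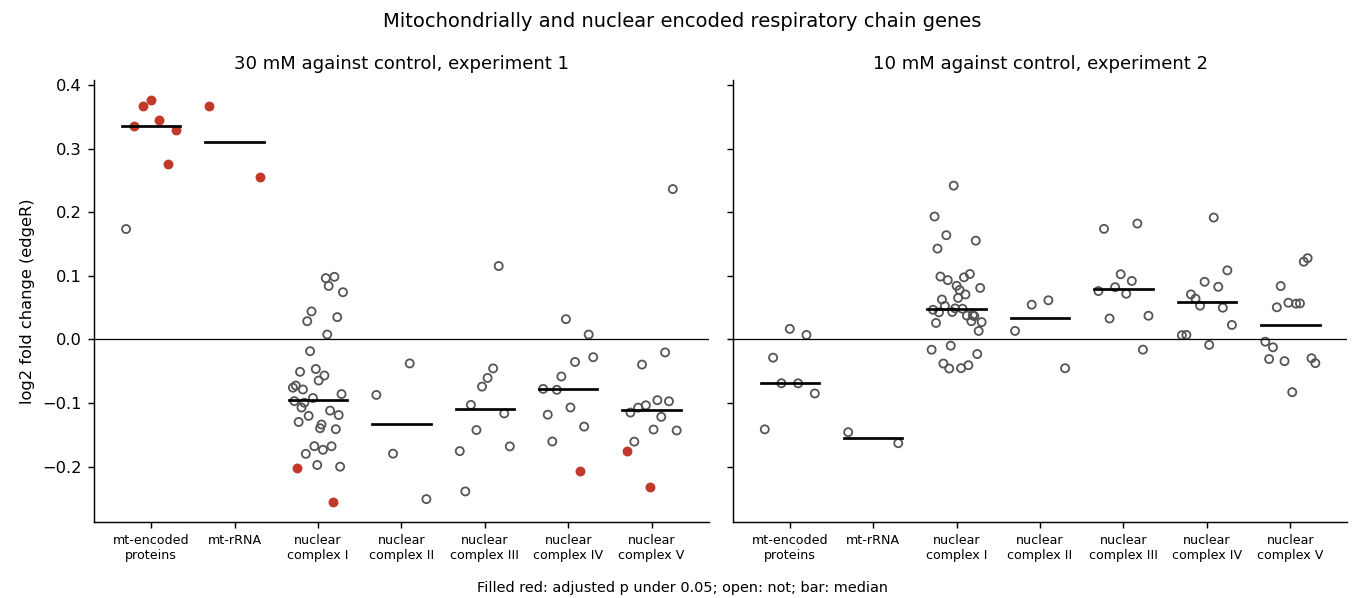
Log2 fold changes of the 7 mitochondrial protein genes, the 2 mitochondrial ribosomal RNAs and the tested nuclear genes of complexes I to V, at 30 mM (left) and 10 mM (right), with filled red points for adjusted p under 0.05 and bars at the medians. At 30 mM the mitochondrial genes lie between 0.17 and 0.38 and the medians of the 5 nuclear groups between -0.13 and -0.08, and at 10 mM no point is filled.

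The machinery that makes and keeps mitochondrial RNA is encoded in the nucleus. Of 14 tested genes of mitochondrial transcription and replication, such as the polymerase and its factors, 0 were called by edgeR at 30 mM, against 9.67% of all genes tested (median log2 fold change 0.05), and 1 had an unadjusted p under 0.05. Of 17 genes of RNA processing, stability and decay 0 were called (median -0.04, with 1 unadjusted), and of 8 regulators of mitochondrial biogenesis 0 (median 0.00, with 2 unadjusted). DESeq2 and voom called 0 in each of these lists. Of 14 genes of abundant mitochondrial proteins, which stand for mitochondrial mass, 7 were called lower and 0 higher, against 6.65% and 3.02% of all genes, with a median of -0.21. DESeq2 called 5 and voom 8. Examples were Phb2, a prohibitin of the inner membrane, at -0.28 (SE 0.0748, edgeR adjusted p = 0.0109), and Hspa9, the chaperone of protein import, at -0.26 (SE 0.0652, edgeR adjusted p = 0.00655).

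Of 10 tested genes of the mitochondrial stress response 1 was called higher and 2 lower at 30 mM, where 3.02% of all genes were higher and 6.65% lower. Ddit3, a transcription factor of the integrated stress response, was higher by 0.48 (SE 0.144, edgeR adjusted p = 0.0244), and Atf4, its upstream factor, was lower by -0.44 (SE 0.0628, edgeR adjusted p = 1.96e-06). The other gene called lower was Hspa9, which is also in the mitochondrial mass list, so these lists are not separate. Of 11 genes of mitophagy and dynamics 1 was higher and 1 lower, against the same shares. Pink1, the kinase that marks damaged mitochondria, was higher by 0.25 (SE 0.0757, edgeR adjusted p = 0.0245). Sqstm1, an autophagy receptor, was lower by -0.23 (SE 0.0678, edgeR adjusted p = 0.0199).

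At 10 mM ethanol, 0 of the 7 tested genes passed the same test over 13538 genes, of which 0.657% were called. With an unadjusted p under 0.05 there was 1, mt-Nd1. DESeq2 and limma voom also called 0. mt-Nd1 held 0.151%, 0.158% and 0.165% of counts at the lowest, median and highest in the controls of experiment 2 and 0.131%, 0.142% and 0.156% at 10 mM. There 5 of 6 ethanol wells lay below the lowest control, and the log2 fold change was -0.14 (SE 0.0507, edgeR adjusted p = 0.247).

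The other 6 genes had log2 fold changes between -0.09 and 0.02 at 10 mM, and their groups overlapped. mt-Nd2 held 0.201%, 0.220% and 0.226% in the controls and 0.189%, 0.209% and 0.234% with ethanol, with a 95% interval of -0.13 to 0.08 for its log2 fold change. mt-Nd4 held 0.138%, 0.147% and 0.160% in the controls and 0.127%, 0.141% and 0.164% with ethanol, with an interval of -0.17 to 0.04. For mt-Cytb the values were 0.135%, 0.151% and 0.153% and then 0.117%, 0.139% and 0.159%, with an interval of -0.19 to 0.02. mt-Nd6 held 0.0852%, 0.106% and 0.113% in the controls and 0.0786%, 0.0933% and 0.116% with ethanol (-0.19 to 0.06).

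mt-Nd5 had a mean of 0.0251% ± 0.00187 (SD, n = 6) in the controls and 0.0252% ± 0.00304 (SD, n = 6) at 10 mM, and mt-Co1 0.0273% ± 0.00136 (SD, n = 6) and 0.0273% ± 0.00203 (SD, n = 6). The intervals are the log2 fold change and its SE times the t quantile of edgeR's degrees of freedom. They leave room for small changes, and for mt-Nd1, mt-Nd2, mt-Nd4, mt-Nd5, mt-Nd6, mt-Co1 and mt-Cytb their upper ends lay at or under 0.15. The interval of mt-Nd1, from -0.24 to -0.04, lay wholly below 0, without adjustment for the number of genes tested. mt-Rnr1 and mt-Rnr2 were at -0.15 (edgeR adjusted p = 0.303) and -0.16 (edgeR adjusted p = 0.203), and voom called 1 of them. Of the nuclear genes of complexes I to V 0 of 75 were called by edgeR (median 0.05, against 0.00 for all genes tested), 2 by DESeq2 and 1 by voom, and 11 had an unadjusted p under 0.05. The lists of mitochondrial transcription, RNA processing, biogenesis, mass, stress response and mitophagy had 0 genes called at 10 mM by edgeR, DESeq2 or voom, and 3, 2, 0, 0, 2 and 1 at an unadjusted p under 0.05. The ratio of the 7 genes to the nuclear ones was 0.335 ± 0.0177 (SD, n = 6) in the controls and 0.308 ± 0.0329 (SD, n = 6) with ethanol.

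The responses in the 2 experiments were set against each other as an interaction over all 24 wells. Of the 7 genes 5 had a more positive log2 fold change at 30 mM than at 10 mM and passed the test over 14655 genes, of which 3.28% were called and 0.88% in that direction. The difference was 0.42 for mt-Nd4 (SE 0.0923, edgeR adjusted p = 0.00281), 0.40 for mt-Cytb (SE 0.0913, edgeR adjusted p = 0.00430) and 0.40 for mt-Nd6 (SE 0.110, edgeR adjusted p = 0.0250). It was 0.35 for mt-Nd2 (SE 0.0927, edgeR adjusted p = 0.0184) and 0.30 for mt-Nd1 (SE 0.0834, edgeR adjusted p = 0.0260), the gene whose change at neither dose passed alone. mt-Nd5 at 0.35 (SE 0.108, edgeR adjusted p = 0.0553) and mt-Co1 at 0.26 (SE 0.0911, edgeR adjusted p = 0.101) did not pass.

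How many passed rested on single wells. It fell to 2 or 3 without any 1 of 30 mM replicates 3 and 6, experiment 1 control replicates 1, 2 and 4, 10 mM replicates 2 and 4, and experiment 2 control replicates 2, 5 and 6. mt-Nd4 and mt-Cytb were called without each of the 24 wells in turn. The ribosomal RNAs gave differences of 0.50 for mt-Rnr1 (SE 0.102, edgeR adjusted p = 0.00134) and 0.41 for mt-Rnr2 (SE 0.1005, edgeR adjusted p = 0.0107). Among the nuclear genes of the complexes 3 of 76 were called by edgeR, all with a more negative change at 30 mM (2.4% of all genes tested). They were Cox7b at -0.30, Atp5g1 at -0.30 and Ndufa3, a small subunit of complex I, at -0.28. DESeq2 called 8 and voom 3, and 25 had an unadjusted p under 0.05. The difference was positive for 6 of the 76, and its median was -0.15, against 0.02 for all genes tested. Of 14 tested genes of the transcription and replication list 2 were called with a more negative change, against 2.4% of all genes tested. DESeq2 called 1 of the list and voom 0. By edgeR they were Twnk, the mitochondrial helicase, at -0.95 (SE 0.289, edgeR adjusted p = 0.0478), and Mrpl12 at -0.35 (SE 0.105, edgeR adjusted p = 0.0475). Mrpl12 is a ribosomal protein that also binds the mitochondrial polymerase. Of 8 astrocyte markers 4 were called with a more positive change at 30 mM, against 0.88% of all genes tested. Of 12 oligodendrocyte markers 2 were called more positive and 1 more negative. Of 9 fibroblast and mural cell markers 3 were called more negative, against 2.4% of all genes. Of the precursor, microglia, endothelial and neuron markers 0 were called. The part of the makeup of the wells in the result was not tested.

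The 2 experiments also differed without ethanol. All 7 tested genes were higher in the controls of experiment 1 than in those of experiment 2, with every well of the first above every well of the second. Of 13479 genes tested here 43.6% were called and 21.3% were called in this direction, and 8.88% had groups apart in this direction. mt-Cytb differed most (log2 fold change 0.95, SE 0.0571, edgeR adjusted p = 8.64e-26), with a mean of 0.277% ± 0.0318 (SD, n = 6) against 0.148% ± 0.00656 (SD, n = 6). mt-Nd5 followed at 0.87 (SE 0.0654, edgeR adjusted p = 3.04e-20) and mt-Nd1 at 0.66 (SE 0.0540, edgeR adjusted p = 1.78e-18). mt-Nd6 at 0.56, mt-Nd4 at 0.55 and mt-Nd2 at 0.52 lay within 1 SE of each other, and mt-Co1 was lowest at 0.36 (SE 0.0598, edgeR adjusted p = 5.45e-07).

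The proportions of the genes in the pool were also compared between the controls. mt-Cytb made up 22.0% ± 0.894 (SD, n = 6) of the pool in experiment 1 and 17.96% ± 0.404 (SD, n = 6) in experiment 2. mt-Nd2 made up 23.9% ± 0.671 (SD, n = 6) and 26.2% ± 0.301 (SD, n = 6), and mt-Co1 2.72% ± 0.0803 (SD, n = 6) and 3.32% ± 0.266 (SD, n = 6). In each of these 3 genes no well of one experiment reached the range of the other. Outside the 10 genes, mt-Nd3 was higher in experiment 1 by 1.56 (SE 0.0861, edgeR adjusted p = 3.56e-28) and mt-Te by 1.39 (SE 0.0871, edgeR adjusted p = 7.05e-25).

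The nuclear subunits were higher in experiment 1 as well, in 64 of 76 tested genes with 1 lower and a median of 0.41, against 21.3% higher and 22.3% lower over all genes. Examples were Cox6c of complex IV at 0.84 (SE 0.0570, edgeR adjusted p = 6.36e-23) and Ndufb4 of complex I at 1.15 (SE 0.0885, edgeR adjusted p = 7.62e-20). Tfam, which packs mitochondrial DNA and starts its transcription, was higher by 0.43 (SE 0.122, edgeR adjusted p = 0.00286), but with 3 of 13 genes called higher and 1 lower the list of transcription and replication was near the 21.3% called higher over all genes. Of the mitochondrial mass list 9 of 14 were called higher. Microglia markers were lower in experiment 1 in 8 of 8 tested genes, with summed shares of 0.0167 to 0.0290% in its controls and 0.228 to 0.277% in those of experiment 2, and 5 of 6 oligodendrocyte precursor markers were lower. Batch, culture and cell makeup cannot be told apart in this comparison. The controls of experiment 1 stand on one side here and on the other side of the comparison at 30 mM, so the 2 sets of values are not independent.

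By group, the order of the mean shares was 30 mM, controls of experiment 1, controls of experiment 2 and 10 mM for mt-Nd1, mt-Nd2, mt-Nd4, mt-Nd6 and mt-Cytb. For mt-Nd5 and mt-Co1 the means of the last 2 groups were nearly equal. The wells of these last 2 groups overlapped for all 7 genes, those of the controls of the 2 experiments for none, and those at 30 mM and in its controls for 4 of the 7.

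Of 13928 nuclear genes with enough counts, those whose log2 level was most like the mean of the 7 genes over 24 wells were Cpe (Pearson's r 0.979), Cst3 (0.970), 1110008P14Rik (0.961), Prdx6 (0.954) and Tmem47 (0.948). Cpe encodes carboxypeptidase E, Cst3 the secreted protease inhibitor cystatin C and Prdx6 a peroxiredoxin. The wells form groups, so such an r is set largely by the difference between the experiments: between the controls Cpe had a log2 fold change of 0.57, and at 30 mM one of 0.27. With the group means taken out, the most alike were Thbs1 (0.777), which encodes the matrix protein thrombospondin-1, Lcp1 (0.755), an actin-bundling protein of blood cells and microglia, Creg1 (0.754), 2900037B21Rik (0.709) and Cst3 (0.708). Thbs1 itself was lower with ethanol, by -0.88 at 30 mM (edgeR adjusted p = 1.00e-09) and by -0.60 at 10 mM (edgeR adjusted p = 3.80e-09), against the direction of the mitochondrial genes at 30 mM.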

How the data were processed

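RNA from 24 wells was sequenced by 3′ TagSeq with single-end reads of 100 bases, per the labels' protocols. The authors deposited raw counts per gene, whole numbers with no normalization, for 55359 Ensembl identifiers. The submitters' processing notes name cutadapt 1.18, STAR and GRCm39. The annotation, the counter, the use of strand and the removal of duplicates are not given in the sources used here. Symbols matched 52083 identifiers, and 3276 had none. Where a symbol had several identifiers, the one with the highest count was used.

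Shares are percentages of a well's total count. Tests used edgeR 4.0.16 (R 4.3.3): TMM, filterByExpr with a minimum count of 10, quasi-likelihood F test, Benjamini-Hochberg adjustment over all genes tested, threshold 0.05. The SE is the log2 fold change divided by the square root of F. Each dose was fitted with its own 12 wells, and the interaction with all 24. The code was tested on simulated data. Alternatives were RLE factors, library size only, scaling without mitochondrial genes, other filters and thresholds, DESeq2 1.42.0, voom (limma 3.58.1), a joint fit, a block for the replicate number and leaving out each well. A covariate for total count was chosen after seeing the data. No 2 wells of a group agreed within sampling noise (60 pairs, chi-square per degree of freedom 1.07 to 2.88).

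The genes and lists were chosen with earlier results of these data known. All 10 genes are named, and from each nuclear list at most the 3 called genes with the smallest p. The most alike genes were the 5 with the highest correlation among genes with a mean log2 CPM of at least 3.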

Additional observations from a re-analysis of the deposited data

Results flagged for a closer look

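In 28 series of 6 wells, 7 genes in 4 groups, 2 had a well far from the others, and chance alone gives about 1.4. For mt-Nd2 at 30 mM, replicate 1 was the low well with 0.283% of counts (exact 95% Clopper-Pearson interval 0.275 to 0.291%, counting error only), and the other wells were at 0.377 to 0.434%. For mt-Cytb in the controls of experiment 2, replicate 1 was low with 0.135% (0.129 to 0.141%), and the other wells were at 0.147 to 0.153%.

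The ethanol response differed between the experiments by the test of the difference itself for mt-Nd1 (0.30 on the log2 scale), mt-Nd2 (0.35), mt-Nd4 (0.42), mt-Nd6 (0.40) and mt-Cytb (0.40), each more positive at 30 mM. Dose, experiment and batch cannot be told apart in these differences.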

How the results depend on the processing

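At 30 mM, 6 or 7 of the genes were called higher under every alternative except a minimum change of 0.5 on the log2 scale, which left 0, and at 10 mM 0 were called under each. For the difference between the experiments, 3 were called without the low-count filter, 3 with total count as a covariate, 2 at an adjusted p of 0.01, 0 at a minimum of 0.5, and 2 to 6 without each well. All 7 genes stayed called between the controls except mt-Co1 at a minimum of 0.5.

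Over all genes, the number called at 30 mM was 641 at an adjusted p of 0.01 and 444 at a minimum of 0.5. At 10 mM it was 21 in the joint fit, 28 at 0.01, 150 at 0.1, 17 at a minimum of 0.5 and 37 to 95 without each well. For the difference it was 173 at 0.01, 854 at 0.1, 273 at a minimum of 0.5, 307 with the covariate and 329 to 759 without each well, and between the controls 3168 at a minimum of 0.5. Near-zero log2 fold changes at 10 mM changed sign: with the covariate mt-Nd5 was at -0.00590 and mt-Co1 at -0.00905, and without each well mt-Nd2 ran from -0.0626 to 0.00777, mt-Nd5 from -0.0360 to 0.0587 and mt-Co1 from -0.0287 to 0.0312. The causes were not tested, apart from the fewer genes that a stricter threshold admits.

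Wells with the same replicate number did not deviate together (1 of 6 correlations over 0.1 in experiment 1, 0 of 6 in experiment 2). With the number as a replicate block, 7 genes were called at 30 mM, 0 at 10 mM and 6 for the difference, and over all genes 1208, 68 and 461. The 7 counted genes had at least 257 counts a well. mt-Co2, mt-Co3 and mt-Atp6, with 0 or 1 count among 34341341 over all wells, could not be compared, and the cause of their missing counts was not tested.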
